A study of Arabidopsis thaliana with 2 samples.

Results

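Cytosolic ribosomal protein genes were followed in inflorescence stems of Arabidopsis thaliana. Members were all nuclear loci on the array whose probe description names a 40S, a 60S or a 60S acidic ribosomal protein. The rule found 244 of the 25660 nuclear loci named on the array, of which 100 were 40S, 128 were 60S and 16 were acidic stalk proteins. It used the descriptions alone and no measured value. Of the 244 members, 228 passed the filter on dim and outlier spots and were tested, as 94 genes of the 40S subunit, 120 of the 60S subunit and 14 of the stalk.

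The study compared sgr1, a shoot gravitropism mutant, with wild type (WT) of the Columbia accession. Both genotypes were grown under constant light at 23 °C, and the labels give 3 days in the cold and 10 days on plates for both. RNA came from the elongation zone, a 1.5 cm stem segment excised 0.3 to 1.8 cm below the apex of primary inflorescence stems 5 to 8 cm tall, without lateral organs and from at least 10 plants per sample. Both were hybridised together on 2 arrays of 1 slide, each read in 2 colours, with the dyes exchanged: sgr1 carried Cy3 and WT Cy5 on array 1, and sgr1 carried Cy5 and WT Cy3 on array 2. The labels name the mutant by its locus only. SCR (AT3G54220), the endodermis regulator that the sgr1 locus is known to encode, had log2 ratios of sgr1 over WT of -0.81 on array 1 and -1.16 on array 2, a mean of 1.98-fold lower in sgr1 (adjusted p = 3.352e-07). Transcripts that mark green tissue, epidermis, secondary walls and phloem were detected, as were those of SCR. The root marker PYK10, the flower markers AP3 and AG and the seed marker CRA1 did not pass the filter on dim and outlier spots and were not tested.

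The plant cytosolic ribosome is built of a 40S subunit, which reads the mRNA, and a 60S subunit, which forms peptide bonds and carries a flexible stalk of acidic P proteins that recruits translation factors. Each ribosomal protein is encoded by a small family of near-identical nuclear paralogs, and the subunits are assembled on ribosomal RNA in the nucleolus. These genes are strongly expressed where cells grow and divide, and mutants of single paralogs are known for pointed leaves, embryo arrest and altered organ polarity.

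Ribosomal protein transcripts were lower in sgr1 stems as a group, by a small amount per gene. The median log2 ratio of sgr1 over WT was -0.33 on array 1 and -0.31 on array 2, and -0.32 for the mean of both arrays, which is 1.25-fold lower in sgr1. The median of all 19055 genes tested was -0.03 on array 1 and 0.04 on array 2. These medians are given as a description, with no test of the group. By the mean, 207 members were lower and 21 were higher in sgr1, and the 75th percentile of the members (-0.18) lay below the 25th percentile of all genes (-0.17). In bulk stem tissue, fewer cells of a type and less of a transcript per cell cannot be told apart.

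Single genes were tested with limma against a ratio of 0, with adjustment over all 19055 genes and a threshold of 0.05. Of the 228 members, 81 fell and 2 rose in sgr1. That is 35.5% called lower, where 8.98% of all genes tested were called lower, and 0.877% called higher, where 9.93% of all genes were. All 81 that fell were below 0 on both arrays. Their median change was -0.49, or 1.40-fold, with a range of -0.96 to -0.38. No member reached 2-fold by the mean, and 13 were at least 1.5-fold lower. A further 53 members were lower with an unadjusted p under 0.05 but were not called. With the scanner software's own log ratios in place of the loess ratios, the median was -0.35 and 208 members were lower by the mean, but 11 were called lower (4.82%, against 5% of all genes). These 11 were RPS19A, RPS26A, RPS26B, RPL7C, RPL10aB, RPL12B, RPL32B, RPL34B, RPL35A and the loci AT3G58660 and AT4G14250, of which the last was not well above background in sgr1. The prior degrees of freedom, which set how far genes share their spread, were 5.41 there and 47.5 for the loess ratios. For the loess ratios each p-value therefore rests mostly on a spread shared over all genes (prior SD 0.198) and little on the gene's own spread. The SD between arrays of the members, 0.31, was larger than this shared spread. The labels describe the arrays both as 2 biological replicates and as replicate 1 of 1, so the spread between them may be technical.

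**Figure D1:**
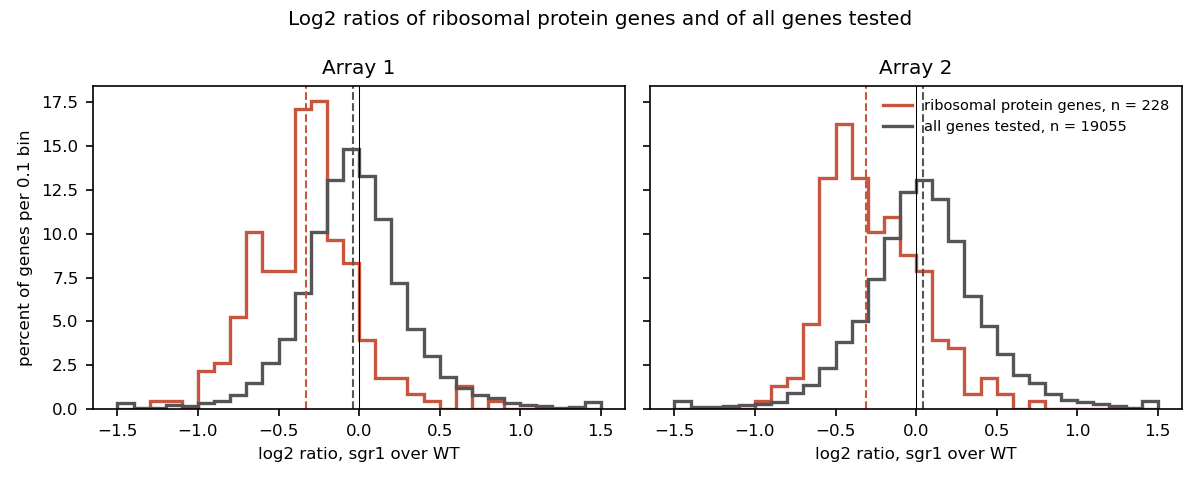
Log2 ratio of sgr1 over WT on array 1 (left) and array 2 (right), as the percent of genes in bins of 0.1, for the 228 ribosomal protein genes (orange) and all 19055 genes tested (grey); dashed lines are medians and values beyond 1.5 are drawn in the last bin. The ribosomal protein genes are displaced to the left on both arrays, with medians of -0.33 and -0.31.

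By the loess ratios, direction was shared between the arrays for most members, but the order of the members was not. On array 1 the members ran from -1.23 through a median of -0.33 to 0.86, and 204 were below 0. On array 2 they ran from -0.91 through a median of -0.31 to 0.75, and 184 were below 0. Both arrays put 169 members (74.1%) below 0, where 33.7% of all genes were below 0 on both, and 9 members above 0, where 33.6% of all genes were. The remaining 50 had opposite signs, of which 35 were brighter in Cy5 than in Cy3 on both arrays and 15 brighter in Cy3 on both. Across the 228 members the ratios of the arrays had a correlation of 0.0023, and across all 19055 genes one of 0.72; genes that share a slide and a labelling are not independent points. The SD between arrays was 0.31 for members and 0.21 for all genes. The SD between members, 0.21, was smaller than their SD between arrays.

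**Figure D2:**
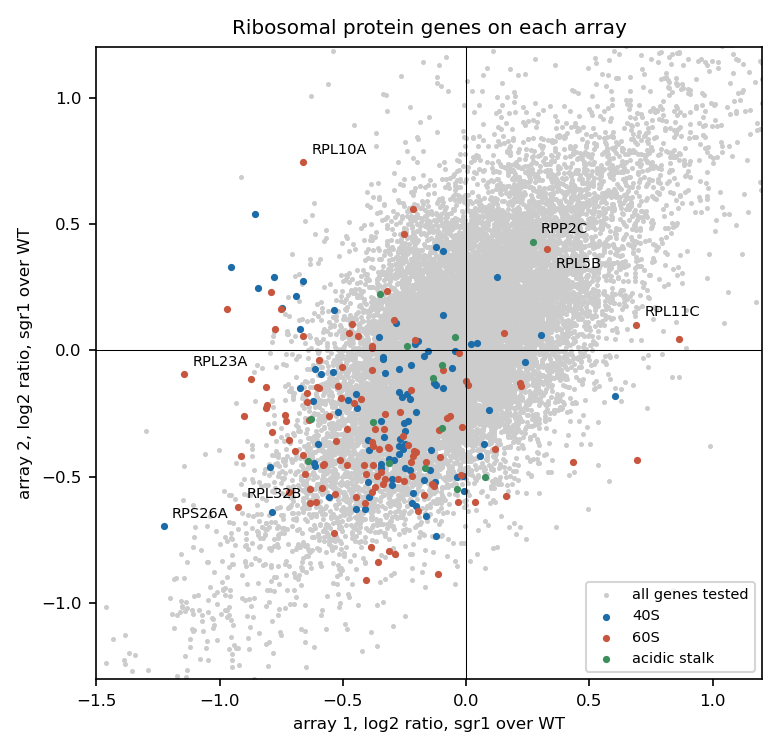
Log2 ratio of sgr1 over WT on array 1 (x) against array 2 (y) for all genes tested (grey) and for 40S (blue), 60S (orange) and acidic stalk (green) genes; the axes leave out the most extreme of the other genes. Of the 228 ribosomal protein genes, 169 lie at the lower left, and RPL10A is among the 35 at the upper left.

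Members were also among the brightest probes. Their median brightness percentile among all genes tested was 95.7, and 158 of the 228 were above the 90th percentile. Over the members, brightness had a correlation with the log2 ratio of -0.43 on array 1 and 0.06 on array 2, and its part in the shift of the group was not tested. With the members given weight 0 when the loess curve was fitted, the median was -0.35 and 91 members were called lower, where 9.09% of all genes were.

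Among the 94 genes of the 40S subunit, 25 fell and none rose by limma at an adjusted p under 0.05, where 8.98% and 9.93% of all genes did. Their median log2 ratio was -0.30, with -0.27 on array 1 and -0.24 on array 2. RPS26A (AT2G40510), a paralog of a protein at the mRNA exit site, had normalized intensities of 2374 and 3038 in sgr1 and of 5558 and 4923 in WT on arrays 1 and 2. Both sgr1 values lay below both WT values. The log2 ratio was -0.96 ± 0.14 (limma's moderated SE, n = 2 arrays, adjusted p = 9.0e-07), the lowest of all members. This SE, here and below, draws mostly on the spread shared over all genes and little on the gene's own arrays. For RPS26A the SD between the arrays was 0.38. Its paralog RPS26B (AT2G40590) had 1450 and 1480 in sgr1 and 2131 and 2214 in WT, a ratio of -0.57 ± 0.14 (adjusted p = 0.00201). The third, RPS26C (AT3G56340), had 7827 and 12979 in sgr1 and 12482 and 12237 in WT. Its log2 ratios were -0.67 on array 1 and 0.085 on array 2 (mean -0.29 ± 0.15, adjusted p = 0.175).

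RPS19A (AT3G02080) encodes a protein of the 40S head, which in yeast and human cells is needed for maturation of the small subunit rRNA. It had 15093 and 17529 in sgr1 and 26057 and 27312 in WT, and fell by 0.71 on the log2 scale (adjusted p = 1.112e-04). Its paralogs RPS19B and RPS19C were not called, at -0.13 and -0.36. RPS18B (AT1G34030), another protein of the head, had 4052 and 4760 in sgr1 and 7026 and 6560 in WT (-0.63 ± 0.14, adjusted p = 7.578e-04). The sgr1 intensities of both genes were below every WT intensity. The other 40S genes with the largest falls were RPS15D (-0.54), RPS15aF (-0.54), RPS24B (-0.53) and RPS30C (-0.52), with arrays that differed by at most 0.22 in log2 ratio.

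Some 40S calls stood alone in their family. RPS20A (AT3G45030) had 53578 and 50816 in sgr1 and 70369 and 75917 in WT (-0.49 ± 0.14, adjusted p = 0.00907), whereas RPS20B was at 0.18 and RPS20C at -0.31, neither of them called. RPS14A (AT2G36160), of the 40S platform, was at -0.16 on array 1 and -0.65 on array 2 (mean -0.41, adjusted p = 0.0369), with RPS14B at 0.21 and RPS14C at -0.21, not called. For RPS14A most of the difference came from array 2, and it was not called with no filter on dim probes (adjusted p = 0.0688). RPS20A was not called when limma's prior for the spread was trended and robust (adjusted p = 0.152). Differences between paralogs were not tested as such.

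Among the 120 genes of the 60S subunit outside the stalk, 53 fell and 2 rose by limma, where 8.98% and 9.93% of all genes did. The median log2 ratio was -0.35, with -0.38 on array 1 and -0.36 on array 2. The difference between the subunits, 44.2% called lower for the 60S and 26.6% for the 40S, was not tested. RPL32B (AT5G46430) had intensities of 10886 and 14851 in sgr1 and of 20664 and 22791 in WT, a ratio of -0.77 ± 0.14 (adjusted p = 3.805e-05). RPL12B (AT3G53430), which encodes the protein at the base of the stalk where translation factors bind, had 49160 and 59802 in sgr1 and 92477 and 79985 in WT, a ratio of -0.67 ± 0.14 (adjusted p = 4.56e-04). In both genes the sgr1 intensities lay below those of WT on each array. RPL12A (-0.47) and RPL12C (-0.52) fell as well.

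RPL35A (AT3G09500), of the rim of the peptide exit tunnel, had 14845 and 14209 in sgr1 and 21523 and 23413 in WT (-0.63 ± 0.14, adjusted p = 6.671e-04). RPL35B and RPL35C fell too, by 0.43 and 0.47 on the log2 scale, and RPL35D was at 0.11 and not called. RPL10aB (AT2G27530), the PIGGYBACK1 gene known from a mutant that alters leaf polarity, had 6818 and 6686 in sgr1 and 10588 and 10152 in WT, a ratio of -0.62 ± 0.14 (adjusted p = 7.705e-04). The arrays differed by 0.03 in its log2 ratio. RPL19B (-0.60) and RPL7C (-0.64) were other large falls. RPL34C (AT3G28900) had 9947 and 8187 in sgr1 and 13200 and 15350 in WT, a mean ratio of -0.66 (adjusted p = 5.362e-04) from -0.41 on array 1 and -0.91 on array 2. RPL23A (AT1G04480), of the face that joins the 40S subunit, was called at -0.62 (adjusted p = 0.00319) although its arrays gave -1.14 and -0.09, so most of this difference came from array 1. With no filter on dim probes RPL23A was not called (adjusted p = 0.0573).

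**Figure D3:**
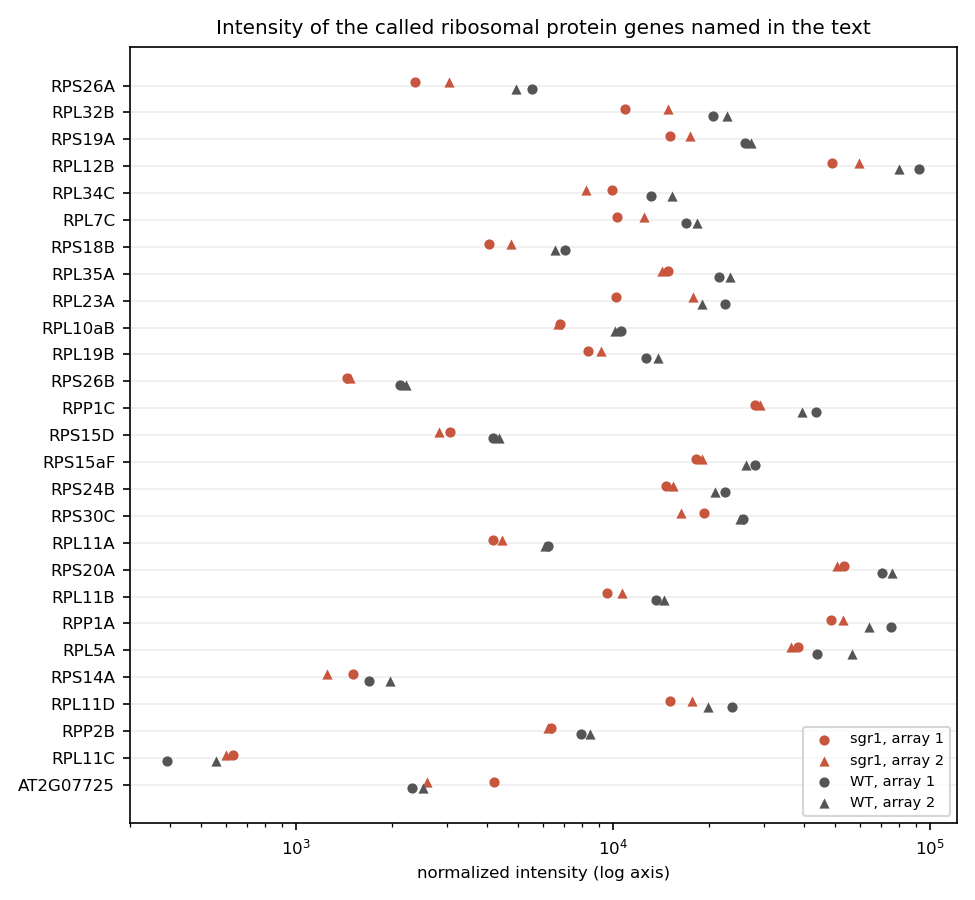
Normalized intensity on a log axis of 27 called ribosomal protein genes, in sgr1 (orange) and WT (grey), with circles for array 1 and triangles for array 2. For the 25 genes that fell, the sgr1 mark of each array lies left of the WT mark of that array; RPL11C and AT2G07725 at the bottom show the opposite.

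Both risers were among the 60S genes by description. AT2G07725 is described as mitochondrial ribosomal protein L5 and lies in a part of chromosome 2 that is known to carry a copy of mitochondrial DNA, so its probe and the mitochondrial transcript cannot be told apart. It had 4210 and 2593 in sgr1 and 2314 and 2514 in WT, with log2 ratios of 0.86 and 0.04 (mean 0.45, adjusted p = 0.0264). RPL11C (AT4G18730) had 633.2 and 599.2 in sgr1 and 392.8 and 558.4 in WT, with ratios of 0.69 and 0.10 (mean 0.40, adjusted p = 0.0476). For both genes the excess in sgr1 was mostly on array 1, and RPL11C was no longer called when the members had weight 0 in the loess fit (adjusted p = 0.0543). With no filter on dim probes neither was called (adjusted p = 0.102 for AT2G07725 and 0.0964 for RPL11C).

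RPL11 and RPL5 bind 5S ribosomal RNA together and enter the growing 60S particle as one unit. The RPL11 family was the only one with calls in both directions. RPL11A (AT2G42740) had 4177 and 4470 in sgr1 and 6237 and 6095 in WT (-0.51), RPL11B was at -0.47 and RPL11D at -0.41, and all 3 fell, against the rise of RPL11C. RPL11A and RPL11B were below 0 by similar amounts on both arrays, whereas RPL11D was at -0.65 on array 1 and -0.17 on array 2. With no filter on dim probes RPL11D was at -0.22 and not called (adjusted p = 0.272), nor was it with a trended and robust prior (adjusted p = 0.0779). The RPL5 family also spread widely: RPL5A (AT3G25520), the PIGGYBACK3 gene, had 38317 and 36442 in sgr1 and 43831 and 56612 in WT and fell by 0.41 (adjusted p = 0.0324), while RPL5B (AT5G39740) had 563.4 and 811.4 in sgr1 and 449.1 and 614.6 in WT, a ratio of 0.36 that was not called (adjusted p = 0.0582). The RPL5A ratio was -0.19 on array 1 and -0.64 on array 2, and its call was lost with no filter on dim probes (adjusted p = 0.0581) and with a trended and robust prior (adjusted p = 0.183).

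Of the 14 stalk genes tested, 3 fell and none rose by limma, where 8.98% and 9.93% of all genes did, and the median was -0.21. RPP1C (AT5G47700) had 28025 and 29109 in sgr1 and 43768 and 39446 in WT (-0.54 ± 0.14, adjusted p = 0.00356), but with no filter on dim probes it was at -0.29 and not called (adjusted p = 0.123). RPP1A (AT1G01100) had 48532 and 53036 in sgr1 and 75000 and 64066 in WT (-0.45, adjusted p = 0.0179), and RPP2B (AT2G27710) 6384 and 6231 in sgr1 and 7928 and 8481 in WT (-0.38, adjusted p = 0.0479). P1 and P2 proteins form the pairs that extend from the stalk, and in these 3 genes each sgr1 intensity was below both WT intensities. RPP1A, at -0.63 on array 1 and -0.27 on array 2, was not called with a trended and robust prior (adjusted p = 0.186), and RPP2B was not called with a normexp offset of 16 (adjusted p = 0.0666) or where the filter asked for signal in both colours (adjusted p = 0.0543). RPP2C (AT3G28500) was at 0.27 and 0.43 on arrays 1 and 2, a mean of 0.35 that was not called (adjusted p = 0.0716). The 3 genes of P0, the anchor of the stalk, stayed between -0.11 and 0.00, and the 2 of the plant-specific P3 were at -0.20 and -0.12, all 5 not called.

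By protein name, the members with a plain name formed 80 families, 32 of the 40S, 44 of the 60S and 4 of the stalk. Every one of the 80 had a median ratio below 0, and 49 held at least 1 member that fell. For comparison, 35.5% of members and 8.98% of all genes were called lower, and differences between families were not tested. Of the 77 families with several tested members, 10 had all of them called lower, 39 had some and 28 had none. Among the 10 were RPL8, RPL12, RPL14, RPL22, RPL26, RPL34, RPL41, RPS12 and RPS24, a list read off after the values were seen. RPL41 encodes the smallest of the ribosomal proteins, and its 3 tested genes were at -0.55, -0.58 and -0.60. At the other end, RPS3, RPL10, RPL13a and RPP0 had medians between -0.06 and -0.02 and no called member. The range within a family had a median of 0.21 and reached 0.91 in RPL11. Paralogs can share probe sequence, so how well the probes separate near-identical copies is not known here.

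**Figure D4:**
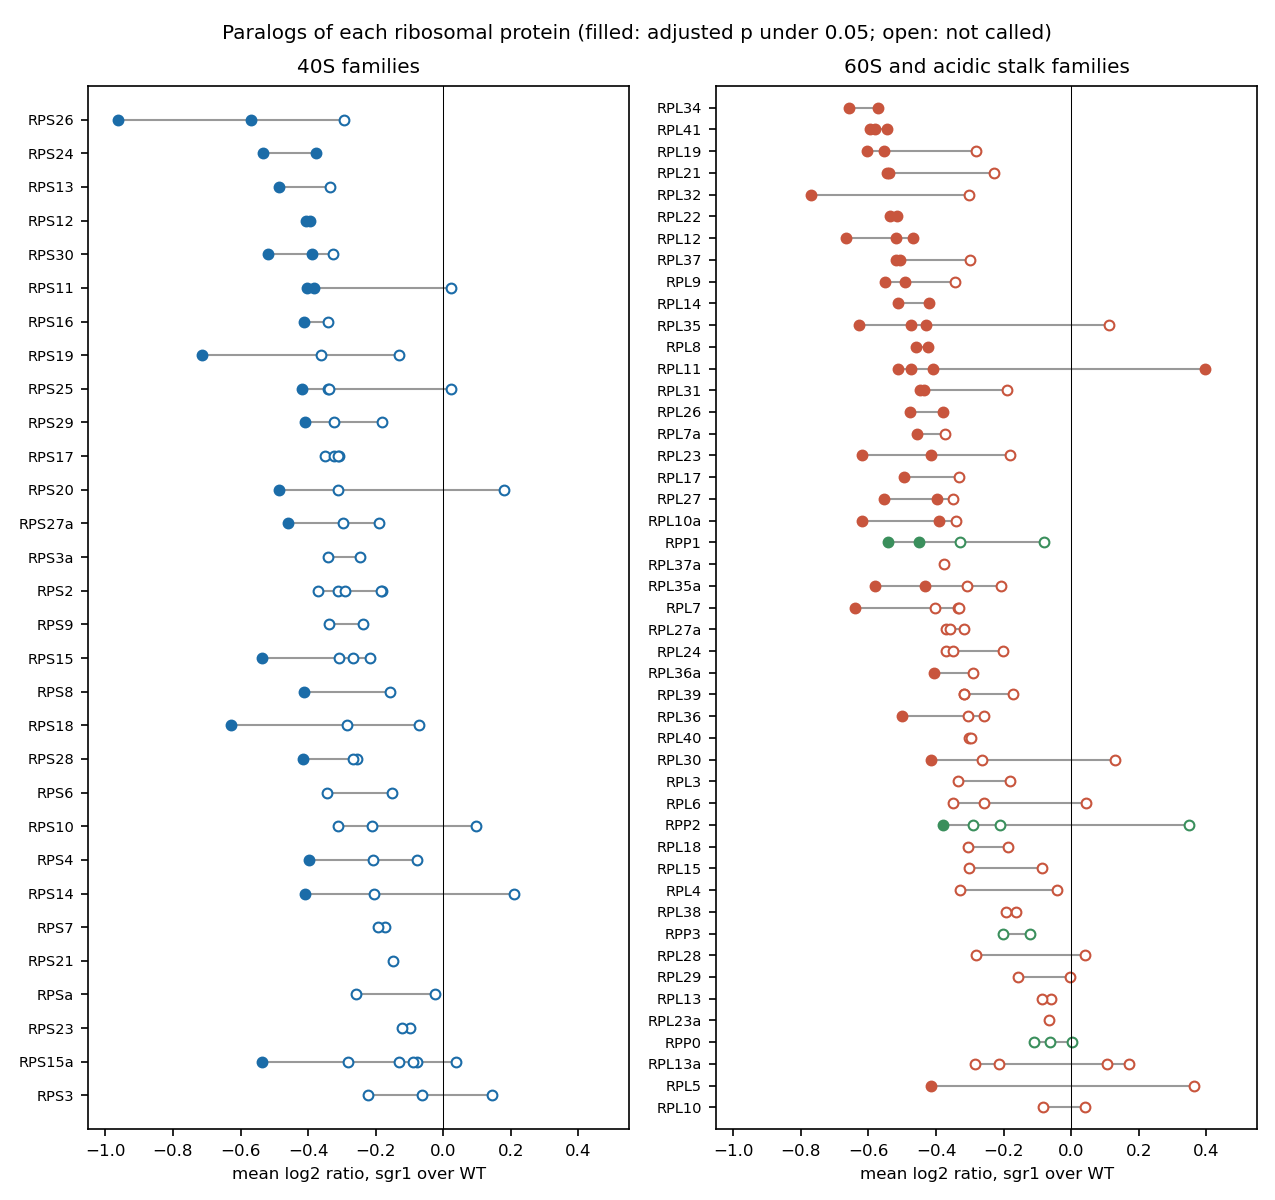
Mean log2 ratio of sgr1 over WT (x) of each tested paralog, by ribosomal protein family (rows, sorted by median), for the 40S (left) and the 60S and acidic stalk (right); filled circles were called at an adjusted p under 0.05, open ones were not, and lines span each family. It draws 77 of the families; all 77 medians are below 0, and RPL11 spans 0.91 with filled circles on both sides of 0.

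Of the members known from mutants, RPL10aB and RPL5A fell, as given above, and those that follow were not called. RPS18A, the POINTED FIRST LEAF gene, was at -0.28, and RPS13A (AT4G00100), its counterpart POINTED FIRST LEAF2, at -0.34. RPL24B, the SHORT VALVE1 gene of gynoecium patterning, was at -0.35. Another locus that the array names RPS13A, AT3G60770, is outside this list of mutants and fell (-0.49, adjusted p = 0.00924 by limma). RPL24B was called with the members at weight 0 in the loess fit (-0.39, adjusted p = 0.0448). RPS6A and RPS6B, targets of the growth kinase S6K, were at -0.34 and -0.15, RPL4A and RPL4D at -0.33 and -0.04, and RPL28A at 0.04, all not called.

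Some of these genes had opposite signs on the arrays. RPL10A (AT1G14320), the SAC52 gene of a late step of 60S maturation, had 46113 and 79745 in sgr1 and 72977 and 47573 in WT, which is -0.66 on array 1 and 0.75 on array 2. Its Cy5 intensity was the higher one on both arrays, and the mean was 0.04 (not called). RPL10C was at -0.08. RPL9C (AT1G33140), the PIGGYBACK2 gene that the array names RPL90A/C, was at -0.78 and 0.09 (mean -0.34, adjusted p = 0.109). Of the RPL23a pair, RPL23aB was at -0.07, and RPL23aA had an outlier spot and was not tested.

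RPL40 and RPS27a are made as fusions to ubiquitin. Their 4 genes UBQ1, UBQ2, UBQ5 and UBQ6 had a median of -0.64 on array 1 and 0.16 on array 2, with means from -0.30 to -0.19, and none was called. RPS27aA (AT1G23410), the third RPS27a gene and named here after its value was seen, fell (-0.46).

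The members were spread over the 5 chromosomes, with 47, 46, 71, 29 and 51 loci on chromosomes 1 to 5. Median ratios per chromosome ran from -0.37 on chromosome 2 to -0.27 on chromosome 5. By the gene order of RefSeq, 10 pairs of members were direct neighbours. In 1 pair, RPL31A (AT2G19740, -0.44) and RPS30A (AT2G19750, -0.39), both genes fell, whereas RPL28A (AT2G19730) on the other side of RPL31A was at 0.04. RPS15C and RPS15D, also neighbours and copies of one protein, were at -0.22 (not called) and -0.54 (called).

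The label cytosolic held for most but not all members. A paralog name in the probe description was given for 221 of the 244, of which 209 were tested, with a median of -0.32. These alone gave 76 falls (36.4%, against 8.98% of all genes) and 1 rise (0.48%, against 9.93%). Of the other 23, 4 are described as mitochondrial, and several only as weakly similar to a ribosomal protein. Among the 19 of these tested, 5 fell (26.3%, against 8.98% of all genes) and 1 rose (5.26%, against 9.93%). The 5 that fell were chosen for naming after their values were seen. They were RPL5A, AT1G57860 (an L21 protein, -0.54), AT4G34555 (an S25 protein, -0.42), and AT3G58660 (-0.59) and AT1G06380 (-0.44), which are only described as related to ribosomal proteins. Of the 16 members not tested, 12 had probes that were dim and 4 had an outlier spot. No member spot was saturated.

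Of 40 genes tested that act in ribosome assembly, 22 fell (55%, against 8.98% of all genes) and none rose (against 9.93%), with a median of -0.40 and a correlation of 0.65 between arrays across these genes. NSN1, a nucleolar GTPase, was at -0.88 and -1.18 (mean -1.03, adjusted p = 1.142e-07). NUC-L1, the main nucleolin, was at -0.81 and -0.95 (mean -0.88, adjusted p = 2.913e-06), FIB2, a fibrillarin that methylates ribosomal RNA, at -0.95 and -0.81 (mean -0.88), and SWA1, a factor for rRNA processing, at -0.70 and -0.90 (mean -0.80). All 4 were lower in sgr1 on both arrays by similar amounts. Those not called included NUC-L2 (0.15) and PUM23 (0.11). With the software's log ratios, 11 of the 40 assembly genes were called lower, where 5% of all genes were. RACK1, the scaffold protein of the 40S subunit, has 3 genes, of which RACK1C fell (-0.17 on array 1 and -0.73 on array 2, mean -0.45, adjusted p = 0.0212) and RACK1A (-0.22) and RACK1B (-0.37) were not called.

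Of 43 translation factor genes tested, 6 fell (14.0%, against 8.98% of all genes) and 1 rose (2.33%, against 9.93%), with a median of -0.20. PAB8, a poly(A) binding protein, was at -0.55 (adjusted p = 0.00285), eIF6A, which keeps the 60S subunit from joining early, at -0.47 (adjusted p = 0.0118), and PAB4 at -0.44, from -0.05 and -0.83 on arrays 1 and 2. TCTP was at -0.42, from -0.61 and -0.22. The riser was the eIF5A gene ELF5A-1 (0.40, adjusted p = 0.0369). Of 10 genes for TOR signalling and known regulators of ribosomal protein genes, none fell and 2 rose, where 8.98% and 9.93% of all genes did: S6K1, the kinase of RPS6, was at 0.69 and 0.78 (mean 0.73, adjusted p = 6.925e-05), and LST8-1, a TOR complex subunit, at 0.36 and 0.80 (mean 0.58, adjusted p = 0.0021). TOR itself was at 0.10 and TCP20, a factor that binds ribosomal protein promoters, at 0.13, not called. With the software's log ratios, 1 of the TOR genes and none of the translation factors were called. Of all 19055 genes, 953 were called lower and 999 higher with those ratios.

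Genes listed by description as organellar ribosomal proteins had medians nearer to that of all genes. The plastid type list held nuclear genes whose description names a 30S or 50S ribosomal protein and not mitochondria. Some of these descriptions name a bacterial protein. Of the 35 tested, 2 fell (5.71%) and none rose, where 8.98% and 9.93% of all genes did, and the median was -0.04. The 2 were AT5G16200 (-0.51) and AT1G16790 (-0.40, from -0.65 and -0.16 on arrays 1 and 2), both only described as related to ribosomal proteins. The list of 15 genes with mitochondrial descriptions included the 4 members so described and AT5G47890, whose description opens with a NADH-ubiquinone oxidoreductase subunit. Of the 15, 3 fell, or 20% (NFD1 at -0.46, AT5G46160 at -0.42 and AT4G31460 at -0.41) and AT2G07725 rose, and the median was -0.14. The difference between the cytosolic and organellar sets was not tested.

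**Figure D5:**
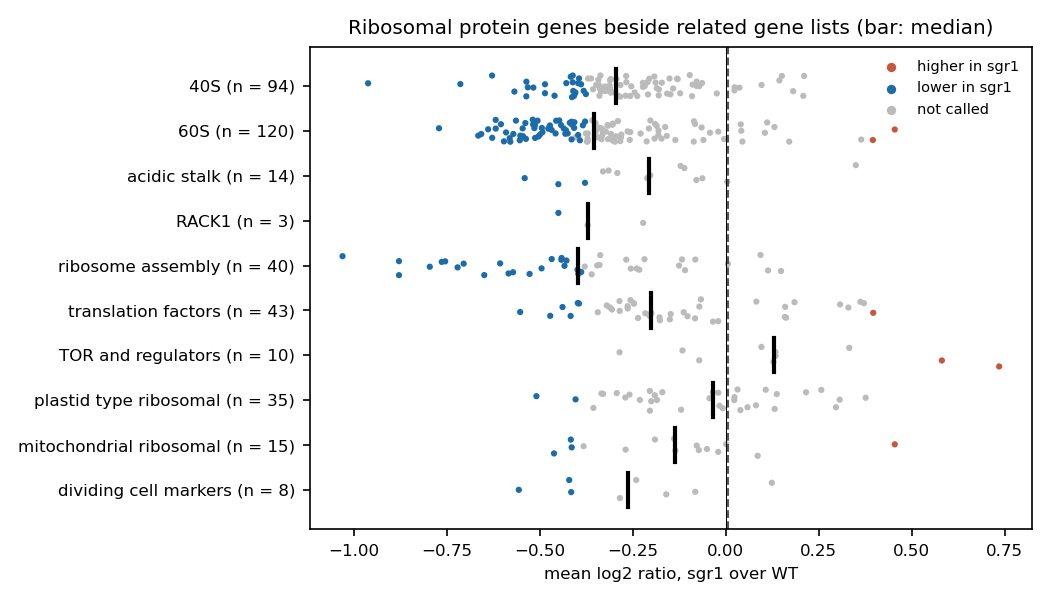
Mean log2 ratio of sgr1 over WT (x) for the 40S, 60S and stalk genes and 7 related gene lists (rows); orange dots were called higher in sgr1, blue ones lower and grey ones not called, black bars are medians, and the dashed line is the median of all genes tested. The ribosome assembly genes (median -0.40) lie lowest, and the plastid type proteins (-0.04) near 0.

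Of 8 markers of dividing cells, 3 fell and none rose, where 8.98% and 9.93% of all genes did: PCNA1 (-0.56), CDKB2;1 (-0.42) and MCM5 (-0.42), which act in DNA replication and the mitotic cycle. The other 5 ran from -0.29 for CDKB1;1 to 0.12 for CYCA1;1, and the list had a median of -0.26, with -0.27 on array 1 and -0.26 on array 2. All 8 were well above background in both genotypes on both arrays. CER6 of the epidermis (0.32 and 0.74 on arrays 1 and 2, mean 0.53, adjusted p = 0.0051) and CESA7 of secondary walls (0.40, adjusted p = 0.0364) were higher in sgr1. They were 2 of 7 stem markers tested (28.6%, against 9.93% of all genes called higher), and SCR was the 1 that fell. CESA8, also of secondary walls, was at 0.17 and not called, nor were SUC2, RBCS1A and LHCB1.3. With the software's log ratios none of the 8 dividing cell markers was called, where 5% of all genes were called lower. The part of these markers in the ribosomal protein result was not tested.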

How the data were processed

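The data were 2 dye-swapped Agilent arrays of sgr1 against WT stem RNA, with 500 ng of RNA per labelling. Spot and background intensity values were deposited by the authors as written by Agilent Feature Extraction 9.1.3.1, per the file headers. The log10 ratio of Cy5 over Cy3 in the deposited files is that software's, after its own background and dye correction, per the file headers; the deposited series table holds the same values. No source used here gives a genome build for the probes. Gene names came from the array and RefSeq, where all 244 members matched.

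Background was removed with normexp (offset 50) and dyes were balanced by loess on each array in limma 3.58.1 under R 4.3.3, with control and outlier spots at weight 0. Both ratios were turned to sgr1 over WT. Probes needed 1 channel well above background on each array and no outlier flag, and were averaged per locus. Between 59.2% and 66.5% of spots per channel were well above background, and 2 arrays limit the precision. Ratios were tested against 0 with lmFit and eBayes (Benjamini-Hochberg over 19055 genes, 1 residual and 47.5 prior degrees of freedom), so a gene can be called although its arrays differ. The normalized intensities quoted include the offset. They were also quantile normalized for mean brightness between the arrays (Aquantile), a step that the tested ratios did not have and that leaves ratios unchanged. On simulated data of 19055 genes, with 66 or 67 genes changed at each size, 13 of 67 changes of 1.3-fold, 47 of 67 of 1.5-fold and 66 of 66 of 2-fold were called in the right direction. The simulated noise was independent per spot, at an SD near that between arrays for all genes (0.21) and below that of members (0.31). Far fewer genes were changed than were called in the data. These rates are therefore not the power for the members. Members, gene lists and tests were chosen with earlier results of these data known. Named genes were, per class, up to 8 called genes with the largest rise and fall, families with calls in both directions, up to 5 families with 1 call and the widest range, genes known from mutants, and up to 4 called genes per list. Alternatives covered background correction, normalization, filters, probe choice, the prior, membership and each array alone. A few members are not reported by name here.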

Additional observations from a re-analysis of the deposited data

How the results depend on the processing

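The 81 members called lower became 0 under median centring and 11 with the software's log ratios. Under median centring 1 gene of all 19055 was called lower. On arrays 1 and 2 the medians there were -1.43 and 0.74 for members, and -0.80 and 0.81 for all genes tested. Under the other alternatives 58 (trend and robust prior) to 91 (members at weight 0 in the loess) were called. The 2 members called higher became 0 under median centring, the software's ratios and no filter on dim probes, and 1 without background correction, with both channels above background, with members at weight 0, with the brightest probe and among members with a paralog name. The median of all members, -0.32, was -0.35 under median centring, the software's ratios and members at weight 0 (-0.3469, -0.3470 and -0.3482), and between -0.33 and -0.31 on each array alone. The 40S median, -0.30, was -0.32 with members at weight 0 and between -0.27 and -0.24 on each array alone, and the 60S median with the stalk, -0.34, was -0.37 under the same 3 alternatives and between -0.37 and -0.33 on each array alone. No called gene named by rule changed direction under any alternative run. Each of them lay on the same side of 0 on both arrays, so the runs on each array alone could not reverse it. Under median centring the shifts of the 2 arrays had opposite signs and largely cancelled in the mean. Of these genes, 20 lost their call with the software's ratios and 28 under median centring. The test of ratios against 0 already paired sgr1 with WT on each array, so no separate paired analysis was run. Treating the mean of both arrays as 1 replicate leaves no test and the same medians. Changes under about 1.3-fold were rarely callable with these 2 arrays: the smallest called change of a member was 0.38 in log2 ratio.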
